A study of Mus musculus with 8 samples.

Results

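The genes described here are 31 imprinted genes of the mouse, out of 57180 annotated genes in the table, measured in muscle stem cells, which rest beside muscle fibres and rebuild them after injury. They were chosen by name, as genes known to be imprinted, and not by any value in these data. Genomic imprinting leaves only the maternal or only the paternal copy of a gene active, according to DNA methylation marks that are set in the germ line and kept in body cells. Most imprinted genes lie in clusters, where a non-coding RNA or an insulator element silences its neighbours on the same chromosome. Many act on growth, and paternally expressed members such as Igf2 tend to promote it while maternally expressed members such as Cdkn1c and Igf2r tend to restrain it. By textbook assignment 19 of the 31 are expressed from the paternal copy, 11 from the maternal copy, and Gnas from either, depending on promoter and tissue. The counts do not separate the parental copies, so every level below is the sum of both.

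RNA was sequenced from muscle stem cells sorted by flow cytometry and not cultured, with a low-input kit based on template switching. Control mice, with the genotype given as WT, gave 4 libraries (numbers 2, 5, 7 and 8). Mice called RhoA het in the titles gave another 4 (numbers 5, 6, 7 and 8). The design text describes the latter as SC-RhoAfl/+, with 1 floxed RhoA allele in the stem cells, while their genotype field reads RhoA knockdown. The labels used here give neither the driver of the recombination, nor age or sex, nor what the numbers stand for. RhoA is a small GTPase of the actin cytoskeleton, and the stated purpose was to find expression changes after its activity was lowered. Libraries held 19138763 to 25606342 assigned fragments. Rhoa itself lay between 272.6 and 382.9 CPM (counts scaled to a common library total, after TMM scaling) for the controls and between 252.5 and 282.1 CPM for RhoA het. Its log2 fold change was -0.29 (SE 0.13, edgeR unadjusted p 0.0495, adjusted p 1). All 12 listed muscle stem cell markers, Pax7 and Myf5 among them, were present and passed the filter on low counts, with a summed level of 8921 to 17355 CPM. Control library 2 and RhoA het library 6 held 14358 and 14659 fragments on Y-linked genes, where the other 6 libraries held at most 2.

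Imprinted promoters are often rich in CpG, the dinucleotide that carries DNA methylation in mammals. RefSeq promoter windows of 300 bases, from 250 before to 50 after a transcription start on GRCm38.p6, were matched to 25 of the 31 genes, taking for each gene the start with the most CpG. The windows of 14 of these 25 genes (56%) had a ratio of observed to expected CpG of at least 0.6, which 38.3% of the windows of 27025 genes had. Their median was 15 CpG per window, against 8 over all genes, and their median GC content was 57.3% against 53.3%. The letters TGCCGC, the core of the motif read by the imprint-keeping zinc finger protein ZFP57, stood on either strand in 8 of the 25 windows (32%), against 12.2% of all windows. Grb10 had the most CpG, at 45 in its window of 300 bases, and Gnas had 40, while Rian had 0 and Airn 3. A match of these letters is a description of the sequence only, and methylation was not analysed here.

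The windows below belong to the genes on which the values turn. CpG is in capitals, all other bases are in lower case, and each runs 5′ to 3′ on the gene's own strand. Igf2, Igf2r and Asb4 come first, because they had the smallest p between genotypes. The Igf2 window (chr7:142658755-142659054, minus strand) holds 24 CpG, that of Igf2r (chr17:12769657-12769956, minus strand) holds 34, and that of Asb4 (chr6:5390160-5390459, plus strand) holds 8.
Igf2: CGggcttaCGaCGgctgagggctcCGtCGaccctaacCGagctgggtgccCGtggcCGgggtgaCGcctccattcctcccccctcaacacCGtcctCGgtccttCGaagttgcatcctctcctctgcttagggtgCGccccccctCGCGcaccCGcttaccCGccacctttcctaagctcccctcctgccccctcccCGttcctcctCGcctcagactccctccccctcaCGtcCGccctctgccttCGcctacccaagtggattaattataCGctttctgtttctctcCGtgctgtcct
Igf2r: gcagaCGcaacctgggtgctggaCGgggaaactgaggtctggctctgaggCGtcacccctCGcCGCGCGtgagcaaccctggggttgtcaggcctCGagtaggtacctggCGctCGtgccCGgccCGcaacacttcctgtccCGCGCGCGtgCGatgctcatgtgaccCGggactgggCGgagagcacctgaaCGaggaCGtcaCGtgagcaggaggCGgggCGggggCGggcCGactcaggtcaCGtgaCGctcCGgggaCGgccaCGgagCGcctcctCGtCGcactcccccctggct
Asb4: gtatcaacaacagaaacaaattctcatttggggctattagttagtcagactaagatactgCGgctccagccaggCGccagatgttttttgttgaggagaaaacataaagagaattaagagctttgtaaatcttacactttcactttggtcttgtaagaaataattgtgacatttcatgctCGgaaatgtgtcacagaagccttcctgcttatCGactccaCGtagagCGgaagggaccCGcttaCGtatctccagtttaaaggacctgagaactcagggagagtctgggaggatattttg

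Dlk1, Mest and Nap1l5 are shown because they differed widely from library to library. The Dlk1 window (chr12:109452573-109452872, plus strand) holds 9 CpG. The windows of Mest (chr6:30737800-30738099, plus strand) and Nap1l5 (chr6:58907077-58907376, minus strand) hold 17 each, and each contains the ZFP57 core at 2 positions.
Dlk1: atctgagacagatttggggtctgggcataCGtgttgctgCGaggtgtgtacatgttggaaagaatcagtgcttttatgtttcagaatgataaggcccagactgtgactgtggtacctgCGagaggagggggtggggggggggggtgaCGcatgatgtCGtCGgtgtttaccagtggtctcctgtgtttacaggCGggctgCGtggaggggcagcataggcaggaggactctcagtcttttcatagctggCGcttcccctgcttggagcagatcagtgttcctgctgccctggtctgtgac
Mest: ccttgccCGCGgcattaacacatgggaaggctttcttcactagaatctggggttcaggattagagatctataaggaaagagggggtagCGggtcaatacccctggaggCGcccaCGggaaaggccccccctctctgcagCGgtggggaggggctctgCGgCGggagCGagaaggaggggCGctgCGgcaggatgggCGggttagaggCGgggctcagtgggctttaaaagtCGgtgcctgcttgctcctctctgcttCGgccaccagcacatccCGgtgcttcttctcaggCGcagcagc
Nap1l5: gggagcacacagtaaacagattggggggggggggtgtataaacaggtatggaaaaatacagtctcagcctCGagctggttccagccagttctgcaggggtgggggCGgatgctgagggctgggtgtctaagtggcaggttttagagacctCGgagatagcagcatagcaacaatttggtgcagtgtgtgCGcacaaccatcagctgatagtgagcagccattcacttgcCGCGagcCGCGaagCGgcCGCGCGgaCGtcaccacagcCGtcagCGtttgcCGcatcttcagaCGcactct

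The Peg3 window (chr7:6730370-6730669, minus strand, 13 CpG) is shown because 263 of its 300 bases also belong to the window of Usp29, which is transcribed away from it on the other strand.
Peg3: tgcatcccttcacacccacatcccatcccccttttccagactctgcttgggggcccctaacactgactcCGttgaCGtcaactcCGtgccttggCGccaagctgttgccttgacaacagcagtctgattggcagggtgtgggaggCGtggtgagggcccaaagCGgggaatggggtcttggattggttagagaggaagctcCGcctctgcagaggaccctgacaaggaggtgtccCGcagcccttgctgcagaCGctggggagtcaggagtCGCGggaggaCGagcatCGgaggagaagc

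Levels are compared between genes in the deposited TPM values, which correct for gene length. Averaged over the 8 libraries, 3 of the 31 genes reached at least 100 TPM, 11 lay between 10 and 100, 11 between 1 and 10, 4 above 0 and under 1, and 2 were at 0. The 5 most abundant made up 65.4% of the summed TPM of all 31, and Gnas alone 24.6%. Gnas, which encodes the stimulatory G protein alpha subunit and further products from alternative promoters, averaged 247.4 ± 46.3 TPM (SD, n = 8). This placed it above 98.0% of the 32486 genes with at least 1 fragment. Grb10, an adaptor that dampens insulin and IGF1 receptors, averaged 192.5 ± 68.2 TPM, and Peg3, a zinc finger transcription factor, 117.1 ± 31.5 TPM (SD, n = 8 each). The library values of Gnas (184.5 to 304.5 TPM) and Grb10 (112.5 to 282.2 TPM) overlapped, whereas those of Gnas lay above all values of Peg3 (76.9 to 158.6 TPM).

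**Figure D1:**
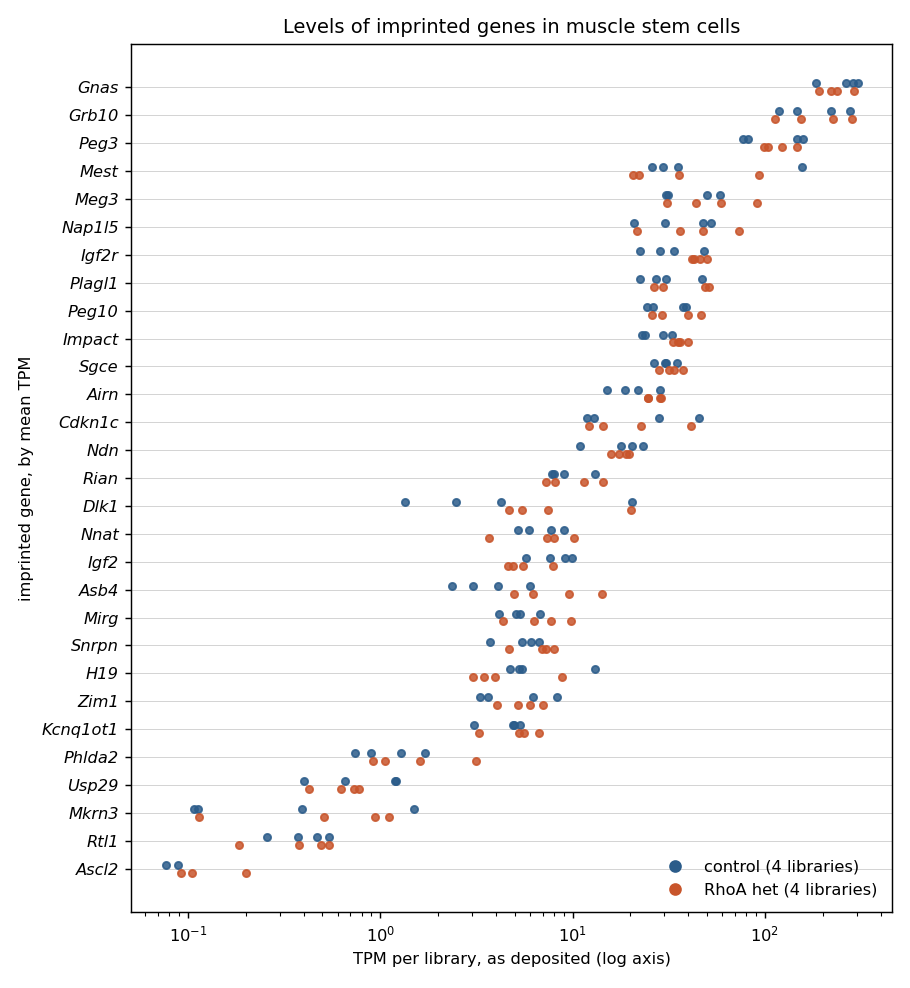
Deposited TPM (log axis) of the imprinted genes, ordered by mean over 8 libraries, with 1 point per library (blue, control; orange, RhoA het). Values of 0 cannot be drawn on this axis, so Magel2 and Zrsr1 are left out and Ascl2 lacks the libraries in which it was at 0; means run from 247.4 TPM for Gnas to 0.070 TPM for Ascl2.

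Among the growth factor and signalling genes below Gnas, Dlk1, a membrane protein related to the Notch ligands, averaged 8.28 ± 7.63 TPM. Igf2, the secreted insulin-like growth factor 2, averaged 6.92 ± 2.00 TPM (SD, n = 8 each). The growth brakes covered a wide range. Below Grb10, Igf2r, the receptor that carries IGF2 to the lysosome, averaged 39.2 ± 9.99 TPM and Cdkn1c, the CDK inhibitor p57, 23.6 ± 13.5 TPM. Phlda2, which limits placental growth, averaged 1.42 ± 0.77 TPM (SD, n = 8). In deposited TPM the receptor gene Igf2r lay above the ligand gene Igf2 in each library, with a lowest Igf2r value of 22.3 TPM and a highest Igf2 value of 9.93 TPM, although shared exon bases lower the latter, as given below.

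The non-coding RNAs were led by Meg3, the start of the maternal transcript chain next to Dlk1, at 49.3 ± 20.4 TPM. Its neighbours in that chain followed at lower levels, Rian, which hosts small nucleolar RNAs, at 9.91 ± 2.73 TPM and Mirg, which hosts a large miRNA cluster, at 6.19 ± 1.89 TPM. On this scale Meg3 was 4.97 times as abundant as Rian and 7.96 times as abundant as Mirg. Airn, the antisense RNA that silences Igf2r, averaged 23.8 ± 4.97 TPM, H19, the RNA beside Igf2 that hosts miR-675, 5.97 ± 3.38 TPM, and Kcnq1ot1, which silences the Cdkn1c cluster, 4.88 ± 1.19 TPM (SD, n = 8 each). The order of H19, Mirg and Kcnq1ot1 did not exceed their spread.

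Zinc finger and RNA-binding genes below Peg3 were Plagl1 (the factor ZAC1) at 35.4 ± 11.6 TPM, Snrpn, a spliceosomal protein gene, at 6.09 ± 1.41 TPM, and Zim1, a zinc finger gene beside Peg3, at 5.47 ± 1.77 TPM. Enzymes and other proteins included Mest, an alpha/beta hydrolase, at 52.2 ± 48.0 TPM, Nap1l5, of the nucleosome assembly protein family, at 41.3 ± 17.7 TPM, Impact, a regulator of the translation kinase GCN2, at 31.8 ± 5.90 TPM, and neuronatin (Nnat) at 7.13 ± 2.11 TPM. Sgce, which encodes epsilon-sarcoglycan, averaged 31.7 ± 3.64 TPM and the retrotransposon-derived Peg10 33.6 ± 8.21 TPM. Necdin (Ndn) averaged 18.1 ± 3.62 TPM and Asb4, a subunit of a ubiquitin ligase, 6.33 ± 3.92 TPM (SD, n = 8 each).

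Genes that share a start region were not always alike in level. Peg10 and Sgce, which start 99 bases apart on opposite strands (mm39, outermost annotated starts), had a ratio of mean TPM of 1.06. Peg3 and Usp29 start 147 bases apart, and Peg3 was 156 times as abundant. Usp29, a ubiquitin-specific protease gene, averaged 0.75 ± 0.31 TPM (SD, n = 8) and was covered by 738 fragments in all, against 85434 for Peg3.

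At the low end, the retrotransposon-derived Rtl1 averaged 0.40 TPM, the makorin gene Mkrn3 0.60 TPM and the transcription factor gene Ascl2 0.070 TPM. Mkrn3 was covered by 78 fragments in all and Ascl2 by 6. Magel2, a MAGE family gene next to Ndn, had 0 fragments in each library, and 3 counts, the limit that a count of 0 allows, correspond to 0.112 to 0.158 CPM per library (counting error only). Mkrn3, Ascl2 and Magel2 did not pass the filter on low counts, and neither did Zrsr1. The count of 0 for Zrsr1, a splicing factor gene inside Commd1, has another basis: all of its 1287 exon bases (mm39 chromosome 11, 22923228 to 22924514) lie within exons of another annotated gene, ENSMUSG00000121808. The counting command set no option to count fragments that overlap several genes, so no fragment could be assigned to Zrsr1, and its level was not measured here.

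Shared exon bases also touched other genes. Of the 31 genes 15 shared exon bases with another annotated gene, and 5 shared more than 20% of them. For Igf2 (ENSMUSG00000048583.18, mm39 chromosome 7, 142204503 to 142220553, minus strand) the share was 64.5%, for Snrpn 34.1%, for Cdkn1c 30.7% and for Mest 23.1%. If fragments fell evenly over exons, dividing by the unshared bases alone would give mean levels of 19.5 TPM for Igf2, 9.25 for Snrpn, 34.1 for Cdkn1c and 67.9 for Mest. This factor is the same in all libraries, so it changes the order of genes and leaves comparisons between libraries as they are.

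Libraries are compared for a single gene in CPM. The imprinted genes that passed the filter (27 of 31) had a median SD of log2 CPM within groups of 0.42, against 0.33 over the 15660 genes tested, and 17 of the 27 lay above that median of all genes. The steadiest was Sgce, with an SD of 0.11 and values of 96.4 to 119.9 CPM. The most variable was Dlk1, with an SD of 1.28, followed by Mest with 1.03.

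The libraries numbered 5, of which each group has 1, stood apart for several genes. Dlk1 (ENSMUSG00000040856.18, mm39 chromosome 12, 109418749 to 109429262, plus strand) was at 5.44, 32.3, 2.29 and 7.84 CPM in control libraries 2, 5, 7 and 8 and at 32.7, 10.03, 12.7 and 7.97 CPM in RhoA het libraries 5, 6, 7 and 8. Both libraries numbered 5 thus lay far above the others, and their mean was 4.21 times that of the other 6. Mest (mm39 chromosome 6, 30723546 to 30748464, plus strand) was also highest there, with 53.7, 172.1, 35.0 and 33.4 CPM in control and 105.4, 28.3, 42.4 and 24.5 CPM in RhoA het, a ratio of 3.83. For Cdkn1c the control values were 10.2, 26.1, 7.23 and 18.9 CPM and the RhoA het values 24.1, 8.08, 8.83 and 13.9 CPM, a ratio of 2.24. H19 had a ratio of 2.19, with 9.71 and 6.76 CPM in the libraries numbered 5 and 5.599 CPM or less elsewhere. These libraries were the 2 highest of 8 for 6 of the 27 genes (H19, Dlk1, Rian, Zim1, Mest and Cdkn1c), and they were so for 11.3% of all genes tested.

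Other genes ran the opposite way. Nap1l5 was at 34.1, 10.8, 29.2 and 18.3 CPM in control and at 11.4, 43.9, 20.1 and 26.5 CPM in RhoA het, so that both libraries numbered 5 were the lowest, at 0.387 times the mean of the others. Peg10 was likewise lowest there, at 48.6 and 49.9 CPM, with 53.3 to 101.4 CPM elsewhere. These were the only 2 of the 27 genes with both libraries numbered 5 at the bottom, as for 10.6% of all genes. No test of these shares was made.

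Other readouts moved with the number 5 as well. The summed level of 20 cell cycle genes was 727.2 and 559.4 CPM in control and RhoA het library 5 and 255.8 to 349.2 CPM in the other 6. Among them the proliferation marker Mki67 was at 57.6 and 37.6 CPM in the libraries numbered 5 and at most 3.80 CPM elsewhere. The dissociation response list summed to 24923 and 22866 CPM there and to between 36507 and 53567 CPM elsewhere. The fibro-adipogenic list summed to 10857 and 9129 CPM against 2459 to 5160 CPM elsewhere, carried by the collagen genes Col1a1 and Col3a1. Its defining markers Dcn and Pdgfra were not high there, with Dcn at 287.5 and 538.4 CPM and a range of 473.9 to 2041 CPM in the other 6 libraries. Igf1, named after its values were seen, stood at 177.4 and 185.1 CPM in the libraries numbered 5 and at 23.1 to 56.9 CPM elsewhere. The part of these readouts in the levels of the imprinted genes was not tested.

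**Figure D2:**
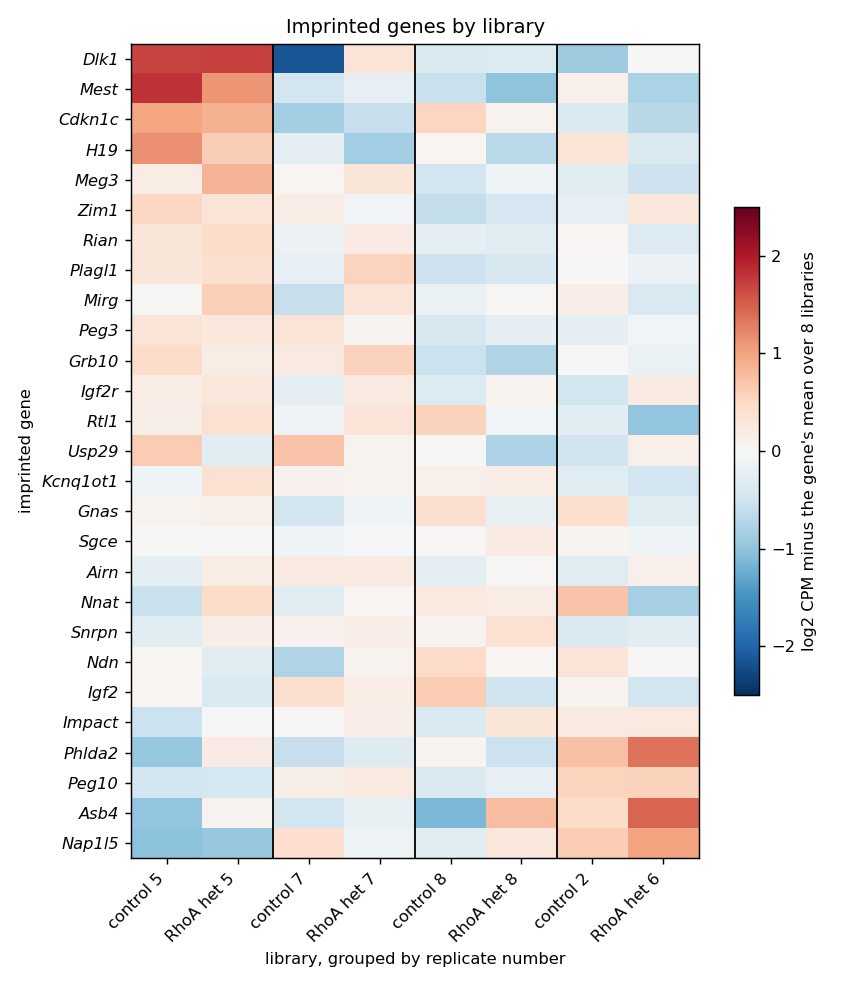
Deviation of log2 CPM from each gene's mean over the 8 libraries (red, above; blue, below) for the 27 imprinted genes tested, with libraries in columns and genes ordered by the ratio of the libraries numbered 5 to the other 6. Lines separate the pairs numbered 5, 7 and 8 from control 2 and RhoA het 6, which share no number; Dlk1 and Mest are high and Nap1l5 is low in both libraries numbered 5.

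The other pairs were less marked. Among the 27 genes, both libraries numbered 7 were the 2 highest for Airn alone (4.56% of all genes) and the 2 lowest for 0 (4.45%). Those numbered 8 were the 2 lowest for Zim1, Grb10 and Plagl1 (4.09% of all genes) and the 2 highest for 0 (6.88%). Control library 2 and RhoA het library 6, which hold the Y-linked fragments, were the 2 highest for Phlda2, Peg10 and Nap1l5 (6.39% of all genes) and the 2 lowest for Rtl1, Kcnq1ot1 and Snrpn (6.29%). They also had the highest summed muscle stem cell markers, at 17355 and 17002 CPM against 8921 to 12271 CPM. Sdc4 (9209 and 7767 CPM) and Vcam1 (3691 and 5085 CPM) made up most of this sum, and Myod1 and Spry1 were also highest there. Other markers did not follow: Itga7 was lowest in these libraries, at 342.0 and 394.1 CPM. Pax7, at 112.5 and 105.6 CPM, lay below control library 7 at 175.8 CPM. Whether sex or cell makeup has a part in these values was not tested.

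Ratios of neighbours with opposite parental expression were taken per library as log2 of TPM with 0.1 added. The ratio of Zim1 to Peg3 was the steadiest, between -4.59 and -4.07. That of Meg3 to Dlk1 was the widest, from 1.51 in control library 5 to 5.11 in control library 7. H19 over Igf2 ranged from -1.35 to 0.76 and was above 0 in the libraries numbered 5 alone, at 0.76 and 0.67. Igf2r over Airn averaged 0.63 ± 0.37 in control and 0.77 ± 0.043 in RhoA het (SD, n = 4 each), and Cdkn1c over Kcnq1ot1 2.21 ± 0.86 and 1.98 ± 0.48. For all 5 ratios the difference between the group means was smaller than the SD of the control libraries.

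The comparison the study was built for, RhoA het against control, called none of the 27 imprinted genes tested. Over all genes 0 of 15660 (0%) passed an adjusted p under 0.05 in edgeR's quasi-likelihood test with Benjamini-Hochberg adjustment, and the adjusted p of each gene named here was 1. An unadjusted p under 0.05 was reached by 3 of the 27 (11.1%), against 2.38% of all genes tested (1.68% higher and 0.696% lower): Igf2, lower in RhoA het, and Igf2r and Asb4, higher. DESeq2 also had 3 of them at an unadjusted p under 0.05, against 2.2% of all genes, and 0 after adjustment. The count of 3 was 0 without control library 8 and 1 without RhoA het library 6 or RhoA het library 8. The 27 genes divided into 16 with a positive and 11 with a negative log2 fold change, with a median of 0.044 against -0.00071 over all genes. Fold changes ranged from -0.62 for H19 to 1.06 for Asb4. The groups did not overlap for 0 of the 27 genes in CPM, against 1.81% of all genes.

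Igf2 was at 12.6, 12.3, 15.6 and 18.6 CPM in control libraries 2, 5, 7 and 8 and at 9.11, 8.60, 13.5 and 8.43 CPM in RhoA het libraries 5, 6, 7 and 8. All RhoA het libraries but number 7 lay below every control library. Mean values were 14.8 ± 2.96 and 9.92 ± 2.43 CPM (SD, n = 4 each). On the log2 scale RhoA het differed by -0.57 (SE 0.22, 95% interval -1.06 to -0.091, edgeR unadjusted p 0.0246, two-sided exact permutation p 0.0857). The smallest p that the 70 assignments of 4 against 4 libraries allow is 0.0286. Most exon bases of Igf2 are shared with another annotated gene, so these values rest on the unshared part.

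Igf2r (ENSMUSG00000023830.15, mm39 chromosome 17, 12901293 to 12988551, minus strand) was at 80.3, 125.3, 93.7 and 87.1 CPM in control and at 134.1, 129.3, 129.1 and 117.8 CPM in RhoA het. The groups overlapped through control library 5, which lay above RhoA het library 8. Mean values were 96.6 ± 19.9 and 127.6 ± 6.94 CPM (SD, n = 4 each), and the log2 difference was 0.40 (SE 0.15, 95% interval 0.068 to 0.73, edgeR unadjusted p 0.0231, exact permutation p 0.0571). Airn, transcribed from within Igf2r on the opposite strand, shares no exon bases with it in this annotation. It was at 34.8, 36.2, 50.4 and 36.3 CPM in control and at 49.2, 47.3, 50.4 and 43.9 CPM in RhoA het, and its log2 fold change was 0.27 (SE 0.14, edgeR unadjusted p 0.0837). Because strand was not used in the counting, unspliced fragments of either gene that fall on the other's exons cannot be told apart.

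Asb4 (ENSMUSG00000042607.16, mm39 chromosome 6, 5383386 to 5433022, plus strand) was at 9.19, 3.34, 4.83 and 3.05 CPM in control and at 7.04, 18.3, 5.87 and 11.4 CPM in RhoA het. RhoA het libraries 6 and 8 lay above the others, and the remaining RhoA het values fell inside the control range. The log2 difference was 1.06 (SE 0.45, 95% interval 0.060 to 2.06, edgeR unadjusted p 0.0399, exact permutation p 0.114), and it was 0.67 without RhoA het library 6. In that library 10 endothelial markers summed to 735.6 CPM, against 112.5 to 212.5 CPM in the other 7, with none of the 10 at 0 throughout. The summed level of 8 mural markers was also highest in RhoA het libraries 8 and 6, at 2528 and 1746 CPM, against 856.6 to 1356 CPM elsewhere. Rgs5 led this sum, at 928.7 and 887.6 CPM, and Pdgfrb was also highest there, at 93.2 and 48.3 CPM. Abcc9 and Notch3 were instead highest in control library 2, at 48.1 and 242.4 CPM. Acta2 in RhoA het library 6 (364.2 CPM) lay below control libraries 5 and 8 (621.2 and 548.2 CPM). The part of endothelial or mural RNA in the Asb4 values was not tested. In sorted but bulk samples, more cells of a type and more RNA per cell cannot be told apart.

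**Figure D3:**
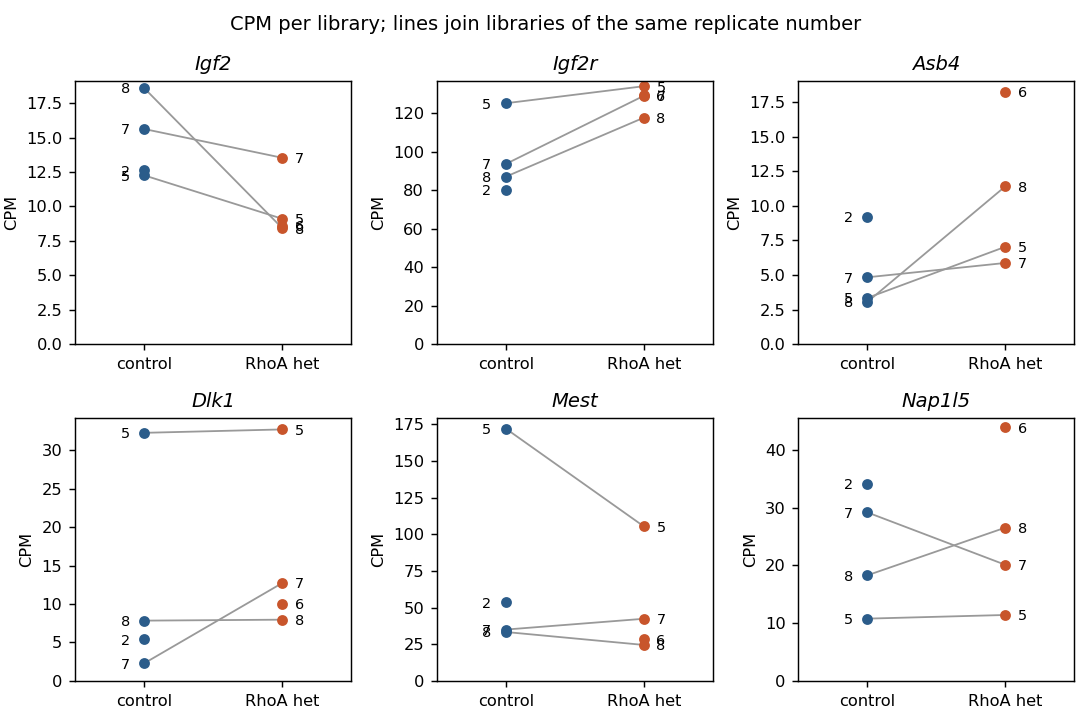
CPM of Igf2, Igf2r, Asb4, Dlk1, Mest and Nap1l5 in each library, by group, with axes from 0, replicate numbers beside the points and lines joining libraries of the same number. Igf2 is lower and Igf2r and Asb4 are higher in RhoA het in each of the 3 pairs, and both libraries numbered 5 stand above the rest for Dlk1 and Mest.

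Impact was the only one of the 27 genes whose groups did not overlap in TPM, against 1.51% of all genes. Its control values were 29.6, 23.9, 33.0 and 23.0 TPM and its RhoA het values 33.1, 35.4, 36.2 and 39.7 TPM, so that the groups were separated by control library 7 at 33.02 and RhoA het library 5 at 33.11. In CPM the groups overlapped, with 34.2 to 58.7 in control and 48.8 to 61.4 in RhoA het, and the log2 fold change was 0.30 (SE 0.18, edgeR unadjusted p 0.119; 0.17 to 0.45 when single libraries were left out).

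H19, Dlk1, Meg3, Mirg and Usp29, of the Igf2, Dlk1 and Peg3 clusters, did not pass the unadjusted threshold. H19 had means of 5.90 ± 2.65 CPM for controls and 3.85 ± 1.99 CPM for RhoA het (log2 fold change -0.62, SE 0.40). Its fold change was -0.28 without control library 5 and -1.04 without RhoA het library 5. Dlk1 had a fold change of 0.41 with an interval from -1.27 to 2.08, and between -0.23 and 1.61 when single libraries were left out. Meg3 was at 227.1, 310.0, 284.7 and 195.7 CPM in control and at 496.5, 191.7, 339.5 and 250.4 CPM in RhoA het (log2 fold change 0.33, SE 0.28). RhoA het libraries 5 and 7 lay above the control range for Meg3 and library 6 below it. Without RhoA het library 5 the fold change was 0.033. Mirg was at 15.1, 13.8, 9.07 and 12.1 CPM in control and at 20.5, 10.4, 16.9 and 13.8 CPM in RhoA het (log2 fold change 0.30, SE 0.24), and its fold change was 0.17 without control library 7 and 0.13 without RhoA het library 5. Usp29 was at 2.80, 6.08, 6.48 and 3.90 CPM in control and at 3.24, 4.28, 4.21 and 2.31 CPM in RhoA het, all but 1 of the latter inside the control range (log2 fold change -0.46, SE 0.32). Leaving out single libraries gave -0.64 to -0.28 for Usp29. The edgeR unadjusted p of these genes lay between 0.158 for H19 and 0.597 for Dlk1.

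Fold changes of Mest, Cdkn1c, Grb10, Gnas, Plagl1, Nap1l5 and Peg10 were within their standard errors or close to them. Mest had -0.55 (SE 0.62), Gnas -0.26 (SE 0.20), Plagl1 0.23 (SE 0.24) and Cdkn1c -0.18 (SE 0.45). Nap1l5 had 0.14 (SE 0.44), Peg10 0.065 (SE 0.28) and Grb10 -0.039 (SE 0.29). Leaving out single libraries turned the direction of Mest, Cdkn1c, Nap1l5, Peg10 and Grb10, and gave -0.41 to -0.15 for Gnas and 0.065 to 0.37 for Plagl1. The 95% interval of Mest ran from -1.94 to 0.83, so a 2-fold lower level in RhoA het could not be told from no difference at this spread between libraries. The other 10 genes tested, among them Peg3 (493.2 ± 127.7 CPM in control, 485.6 ± 70.6 in RhoA het), Sgce (103.8 ± 5.42 and 105.2 ± 10.1), Kcnq1ot1 (135.3 ± 18.8 and 146.2 ± 33.8) and Ndn (21.8 ± 7.07 and 20.1 ± 2.22; SD, n = 4 each), had edgeR unadjusted p of 0.367 to 0.938. By parental copy, 9 of 16 paternally expressed genes tested had a positive fold change, with a median of 0.042. Of 10 maternally expressed genes 7 had a positive fold change, with a median of 0.17.

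**Figure D4:**
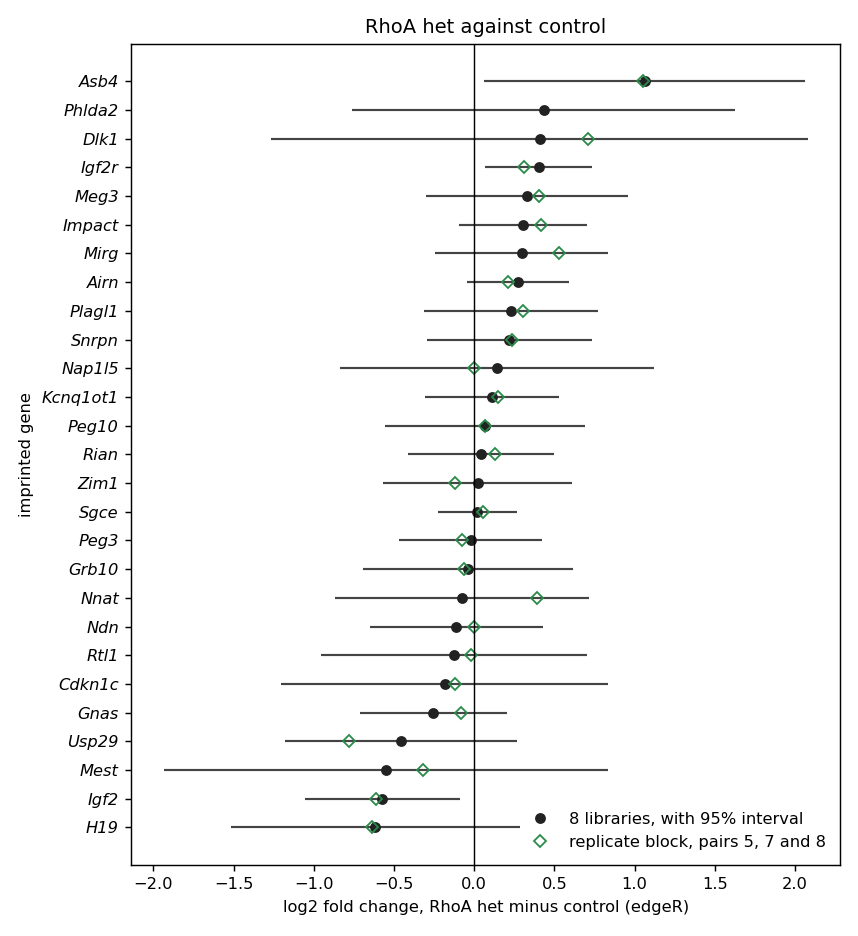
Log2 fold change of RhoA het over control for the 27 imprinted genes tested: black points with 95% intervals over 8 libraries, green diamonds the fit within pairs 5, 7 and 8 (none for Phlda2, which was not in that fit). Only the intervals of Asb4, Igf2r and Igf2 exclude 0, before any adjustment.

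Libraries of the same number deviated together across all genes, so the comparison was also made within the pairs numbered 5, 7 and 8. In this replicate block 27 imprinted genes were tested (Mkrn3 in place of Phlda2) and 0 were called, where 2 of 15714 genes (0.0127%) were called among all genes, and the lowest adjusted p of the 27 in edgeR was 0.604. An unadjusted p under 0.05 was reached by 8 of them (29.6%), against 5.26% of all genes. Those higher in RhoA het were Asb4 (1.05), Mirg (0.53), Impact (0.41), Meg3 (0.41) and Igf2r (0.31). Those lower were Usp29 (-0.78), H19 (-0.64) and Igf2 (-0.61). Each of the 8 had the same direction in all 3 pairs, and their edgeR unadjusted p lay between 0.00532 and 0.0241. Mirg and Meg3 belong to the same maternal chain and share their cluster, as do H19 and Igf2, so these genes are not independent of each other. The 3 pairs are part of the same libraries, so these values are no separate evidence.

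Within the pairs, log2 differences of RhoA het minus control for H19 were -0.52, -0.61 and -0.70 for numbers 5, 7 and 8. The SE of its fold change was 0.40 over all libraries and 0.24 with the block. Usp29 differed by -0.89, -0.61 and -0.73 in the same pairs. Meg3 was higher by 0.68, 0.25 and 0.36, and Mirg by 0.56, 0.89 and 0.18. Rian, which lies between Meg3 and Mirg, differed by 0.17, 0.35 and -0.069 and did not pass (edgeR block p 0.308). Dlk1, the paternally expressed gene of that cluster, differed by 0.020, 2.43 and 0.022, so its block value of 0.71 rested on pair 7.

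Lists of related genes were read from the same fit. Among 48 other imprinted genes 36 were tested and 0 had an edgeR unadjusted p under 0.05, with a median log2 fold change of 0.014. With the block 1 of 35 was higher (Tfpi2, 0.37) and 2 were lower (Slc38a4, -0.72, and Nctc1, -1.01), and 0 were called. Zim3, Zfp264 and Kcnk9 were at 0 in every library. Of 30 genes that set or keep imprints, 28 were tested and 0 had an unadjusted p under 0.05 with or without the block. The imprint-keeping factor Zfp57 had means of 1.96 ± 0.96 CPM for controls and 1.68 ± 1.2 CPM for RhoA het, its partner Trim28 47.9 ± 6.68 and 45.8 ± 7.04, and the maintenance methyltransferase Dnmt1 22.1 ± 7.57 and 25.6 ± 3.76 (SD, n = 4 each). Their log2 fold changes were -0.23, -0.064 and 0.21.

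In the list of 24 genes of the IGF axis, 23 were tested and 1, Pik3r1, a regulatory subunit of PI3 kinase, was higher at an unadjusted p under 0.05 (log2 fold change 0.30, edgeR p 0.0386, adjusted p 1). The receptor gene Igf1r had means of 116.4 ± 5.46 CPM for controls and 131.2 ± 6.64 CPM for RhoA het (SD, 4 libraries each; log2 fold change 0.17, edgeR unadjusted p 0.117). The median over the list was 0.13. With the block 1 of 23 was again higher, but it was Igfbp5, a gene for a binding protein of the IGFs (0.32, edgeR unadjusted p 0.0209), while Pik3r1 did not pass (0.21, p 0.155).

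Marker lists showed no called gene without the block. At an unadjusted p under 0.05 they held 1 of 12 muscle stem cell genes (lower), 2 of 10 endothelial genes and 1 of 4 immune genes tested (higher), and 0 genes of the fibro-adipogenic, mural, erythroid, Schwann, tenocyte, myofibre, cell cycle and dissociation lists. The endothelial genes were Pecam1 and Tie1, at 137.3 and 53.8 CPM in RhoA het library 6 and at most 16.1 and 7.197 CPM elsewhere. The immune gene was Ptprc, at 4.42 CPM in RhoA het library 6 and at most 0.47 CPM elsewhere. The higher group values of these genes were thus carried mostly by that library. Summed levels ranged over the libraries from 92.1 to 356.4 CPM for immune, 1.86 to 319.3 CPM for erythroid and 219.5 to 521.5 CPM for Schwann markers. They ranged from 25.2 to 247.0 CPM for tenocyte and 46.0 to 497.7 CPM for myofibre markers. The immune sum was mostly Lyz2, at 352.2 CPM in control library 8 and 85.8 CPM in RhoA het library 7. Ptprc, Csf1r, Itgam and Adgre1 were instead highest in RhoA het library 6, at 4.42, 4.90, 0.67 and 0.71 CPM. With the block 9 of 10 myofibre genes were lower at an unadjusted p under 0.05 and 2 were called. In the same fit 1 muscle stem cell gene (Pax7, -0.65), 1 erythroid, 1 tenocyte and 2 cell cycle genes were lower at an unadjusted p under 0.05. Higher were 2 fibro-adipogenic genes (Dcn, 0.60, and Lum, 0.74) and 1 Schwann gene, and the endothelial, mural, immune and dissociation lists held 0 such genes. Outside the myofibre list no marker gene passed after adjustment in edgeR. The part of these cell types in the imprinted genes' block values was not tested.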

How the data were processed

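RNA-seq counts per gene in 8 libraries were used as deposited. Per the file headers, the authors counted read pairs with featureCounts 1.6.4 on the exons of each gene of GENCODE mouse release 34 (mm39), from STAR alignments, with no option for strand, multi-mapping or overlapping genes. The submitters' processing notes also name FastQC, cutadapt and DESeq2. The command names 10 alignment files, and 2 of them (control number 6 and RhoA het number 2) were not analysed here. The TPM values deposited by the authors matched those recomputed from counts and gene lengths (largest relative difference 2e-14). Symbols came from GENCODE release 21, which named 51884 of 57180 genes. Promoters are from RefSeq (GRCm38.p6), so their coordinates are on another build than the counts.

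The filter filterByExpr kept 15660 genes and removed 41520. RhoA het was set against control with the quasi-likelihood F test of edgeR (4.0.16, R 4.3.3) after TMM scaling over all 8 libraries without covariates. Calls needed a Benjamini-Hochberg adjusted p under 0.05 over all genes tested. Log2 CPM used a prior count of 2. A two-sided exact permutation test over 70 assignments was added for each gene. The fitting step was tested on simulated counts with the same spread for every gene. At a coefficient of variation of 33%, 21 of 100 genes with an absolute log2 fold change of 1 were called. At an absolute log2 fold change of 2, 99 of 100 were called. A missing call thus does not exclude a 2-fold difference. Alternatives were scaling by DESeq2's size factors or by upper quartiles, no filter, a filter at a mean count of 10, DESeq2 1.42.0 with its Wald test, limma (3.58.1) on log2(TPM + 1) and log2(TPM + 0.1), a sex term, leaving out each library, and the replicate block.

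The titles give numbers 5, 7 and 8 to a library of each group. Deviations from the group means correlated at 0.544, 0.231 and 0.488 for these pairs, all over 0.1. The numbers were therefore taken to pair the libraries. RhoA het library 6 also passed 0.1 with control libraries 2 (0.122) and 7 (0.118), which have other numbers. The biological coefficient of variation was 33.3% without the block over 8 libraries and 17.4% with it. It was 31.4% in the same 6 libraries without the block. The pairing was read from these same counts, so this drop is no separate support for it. Nothing in the labels says that the libraries came from separate animals, so p-values measure the spread between these samples, which may be technical.

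All 31 imprinted genes were named. From the lists of other imprinted genes, imprint maintenance and the IGF axis, up to 3 genes per direction with the smallest unadjusted p under 0.05 were named, and in addition Igf1r, Zfp57, Dnmt1 and Trim28. Rhoa was named as the targeted gene, and other genes as markers from lists for muscle stem, endothelial, fibro-adipogenic, mural, immune, erythroid, Schwann, tenocyte and myofibre cells, the cell cycle and the dissociation response. The genes and lists were chosen with earlier results of these data known.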

Additional observations from a re-analysis of the deposited data

Results flagged for a closer look

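In the 27 imprinted genes tested, each group of 4 libraries was searched for an outlying library on the log2 CPM scale. Its gap to the nearest other, divided by the group's range, had to pass Dixon's 95% critical value. There were 3 such results among 54 groups, where chance gives about 2.7.

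RhoA het library 7 was the highest of its group for Igf2, at 13.5 CPM, with a ratio of 0.837. Without it the log2 fold change of Igf2 was -0.77. Control library 7 was the highest of its group for Airn, at 50.4 CPM, with a ratio of 0.886, and without it the fold change of Airn was 0.41. RhoA het library 5 was the lowest of its group for Ndn, at 16.9 CPM, with a ratio of 0.846.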

How the results depend on the processing

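None of the imprinted genes was called in any of the fits, and over all genes 0 were called in each but the replicate block, with 2. The 3 imprinted genes at an unadjusted p under 0.05 (11.1%, against 2.38% of all genes) became 8 with the replicate block (29.6%, against 5.26%). There were 5 with the block over numbers 7 and 8 alone, an alternative chosen after seeing the data. The count ranged from 0 to 3 when 1 library was left out, with 0 without control library 8 and 1 each without RhoA het library 6 or 8. Without both libraries numbered 5, also chosen after seeing the data, there were 3. The share over all genes was not taken for these smaller sets of libraries, so their counts have no background beside them. The median log2 fold change was -0.022 to 0.14 over the same left-out libraries, below 0 only without RhoA het library 5.

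For the 17 genes whose fold change is printed, 321 of 340 alternative values kept their direction and 19 did not, and 11 genes kept it in all. The lowest adjusted p among these values was 0.604. Grb10 turned positive in limma (0.0091 with either pseudocount), without both libraries numbered 5 (0.045) and with the block over 7 and 8 (0.067). Nap1l5 turned negative with the replicate block (-0.0013), in the same 6 libraries without it (-0.034) and with the block over 7 and 8 (-0.015). Leaving out 1 library gave -0.28 to 0.15 for Grb10, -0.26 to 0.39 for Nap1l5, -0.61 to 0.17 for Cdkn1c, -0.23 to 1.61 for Dlk1, -1.21 to 0.30 for Mest and -0.14 to 0.29 for Peg10. The cause of these turns was not tested. The replicate block changed no other call.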
